A study of Mus musculus with 15 samples.

Results

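Mouse mammary tumours of the 2208L model whose titles read 3day nt (n = 3) were compared with 2208L tumours whose titles read PBS (n = 4). The samples were chosen by title alone and are 7 of the 15 samples of the series, which spans 4 tumour models. All 7 are labelled p53-NULL, a genotype that lacks the tumour suppressor p53, and Balbc, an inbred mouse strain. Replicates 1, 2 and 3 of 3day nt carry the codes KM58, KM59 and KM63 and are called by them here, and replicates 1 to 4 of PBS carry DH659, DH662, DH677 and DH678. The series title concerns chemotherapy and macrophage depletion, but the titles of these samples name neither, and what 3day, nt and PBS stand for, the agent, the dose, the time and the age of the animals are not given in the sources used here. The CP numbers in the titles of the PBS and the 3day nt samples come from ranges that do not meet. The codes split the same way, with DH in PBS and KM in 3day nt. What these numbers and codes stand for is not given in the sources used here. An effect of the label thus cannot be told apart from one of whatever they mark. Nothing in the labels says that the samples came from separate animals, so the p-values measure the spread between these samples, which may be technical.

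RNA-seq of total tumour RNA, captured by its poly(A) tail, was deposited as log2 values for 17271 genes. Each gene is centred on a reference level that is not stated, so a value of 0 is not an absence of RNA, values of different genes cannot be ranked, and a difference of 1 is a change of 1 doubling. All differences below are 3day nt minus PBS on this log2 scale. A gene is called where limma, a linear model with a moderated spread, gave a Benjamini-Hochberg adjusted p under 0.05 in the fit of the 7 samples, and rose or fell is written only of called genes.

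Macrophages in tumours take up different states. Under the cytokines IL-4 and IL-13, which act through the transcription factor STAT6, they enter alternative activation and make the secreted protein Retnla, the mannose and galactose lectins Mrc1 and Mgl2, and the chemokines Ccl17, Ccl22 and Ccl24. Low oxygen stabilizes Hif1a, a factor that switches on glucose uptake, glycolysis and vessel growth through a short promoter element, the hypoxia response element. Skeletal muscle lies next to the mammary fat pad, and contractile proteins such as myosin light chains and troponins mark its fibres.

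Promoter stretches of genes from both programmes are shown first, since the alternative activation genes held the largest shared rise and the hypoxia genes a shared fall. The 250 bases before the start of each gene were searched in the RefSeq promoters of GRCm38.p6, for TTCNNNNGAA, a palindrome that STAT6 is known to bind, and for ACGTG on either strand, the core of the hypoxia response element. The first was found in 1923 of 32851 promoters (5.85%) and in 3 of the 9 called higher alternative activation genes that had a promoter in the table. The second was found in 5444 promoters (16.6%), and in 9 of the 15 called lower glycolysis and hypoxia genes with a promoter. Called or not, 4 of the 16 alternative activation genes and 15 of the 24 glycolysis and hypoxia genes with a promoter held their motif, so it was not more frequent in the called hypoxia genes than in the whole list. The shares of all promoters count each promoter, and those of the lists count each gene once. Where both strands match as CACGTG, the overlapping matches count as 1 promoter. A match describes the letters only. Capitals mark the match in each stretch, given 5′ to 3′ on the gene's strand, at chr16:48842439-48842498 (+), chr8:94810274-94810333 (+), chr19:29410812-29410871 (+), chr7:138909585-138909639 (-), chr12:54204074-54204124 (-) and chr6:82774477-82774531 (-) in that order.
Retnla: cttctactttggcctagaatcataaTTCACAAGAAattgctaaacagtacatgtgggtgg
Ccl17: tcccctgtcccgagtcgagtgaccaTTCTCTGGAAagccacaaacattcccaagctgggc
Pdcd1lg2: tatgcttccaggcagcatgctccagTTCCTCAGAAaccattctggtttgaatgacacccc
Bnip3: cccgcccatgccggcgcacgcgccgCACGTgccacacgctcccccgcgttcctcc
Egln3: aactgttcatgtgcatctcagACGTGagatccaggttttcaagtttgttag
Hk2: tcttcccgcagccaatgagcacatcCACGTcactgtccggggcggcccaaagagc

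The 7 samples differed in more than their titles. Reads behind the values could be recovered on a relative scale, and PBS replicate 4 was the shallowest, at a depth set to 1, against 2.586 to 3.468 for the other PBS samples and 2.407 to 2.691 for 3day nt. Across genes, the deposited values of KM58 and KM63 correlated at r = 0.926 (Pearson, 17271 genes, a description), those of KM59 with either at 0.58 to 0.665, and the PBS samples with one another at 0.764 to 0.837. KM59 correlated with the PBS samples at 0.568 to 0.667, much as with KM58 and KM63, which correlated with PBS at 0.231 to 0.452. KM58 and KM63 held skeletal muscle RNA. The mean over 32 adult skeletal muscle genes was 2.20, 1.22, -1.86 and -1.67 in PBS replicates 1 to 4, and 8.99 in KM58, 0.85 in KM59 and 8.43 in KM63. Of the markers of the tumour epithelium, Epcam, an adhesion protein, read 0.89, 0.84, 0.86 and 0.50 in PBS and 0.63, 1.05 and 0.87 in KM58, KM59 and KM63. Its difference was 0.08 (95% interval -0.29 to 0.45), and that of the luminal keratin Krt8 was 0.03 (-0.29 to 0.35), while other epithelial genes, described below, fell. Trp53, which encodes p53, differed by -0.04 (SE 0.15, limma adjusted p 0.838), and its RNA level does not check the genotype.

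The fit of the 7 samples called 5864 of 17271 genes (34%), of which 2857 were higher in 3day nt (16.5%) and 3007 lower (17.4%). A difference is called shared where the gene passed the test, all 3 3day nt values lay on the same side of the 4 PBS values, and KM59 differed from the PBS mean by at least 1. By this rule 676 genes were shared higher (3.91%) and 886 shared lower (5.13%). In 349 genes (2.02%) KM58 and KM63 were both above every PBS sample by at least 1 while KM59 lay inside the PBS range, and the reverse held for 9 genes (0.0521%). These last were set by position only, since the muscle content that splits the 3 samples was itself read from the data. The counts rested in part on single libraries. Without KM58 the fit called 1227 genes higher and 1723 lower, without KM63 1017 and 1362, and the higher calls numbered 1844 without PBS replicate 1 and 1780 without PBS replicate 2. The shared higher genes numbered 449 and 450 without KM58 or KM63. The reverse set of 9 became 37 without KM58 and 44 without KM63, and the 349 became 602 without KM63.

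KM59 alone against the 4 PBS samples gave 22 higher calls (0.127%) and 76 lower (0.44%) with limma, where the lone sample is assumed to vary like PBS. On simulated data with 200 of 17271 genes changed, this fit recovered 0% of genes changed by 2 units. That share of changed genes is smaller than the 34% called in the 7-sample fit, so recovery may differ in the real data. With 1 sample on the 3day nt side, the counts of this fit say little about what is shared. With the muscle mean of each sample as a covariate, 58 genes were called higher (0.336%) and 148 lower (0.857%). That fit leaves KM58 and KM63 little weight, since the covariate separates them from the rest. Of the shared genes, 57 of the 676 higher and 139 of the 886 lower were still called in it. The plot of KM59 against the mean of KM58 and KM63 shows the classes.

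**Figure D1:**
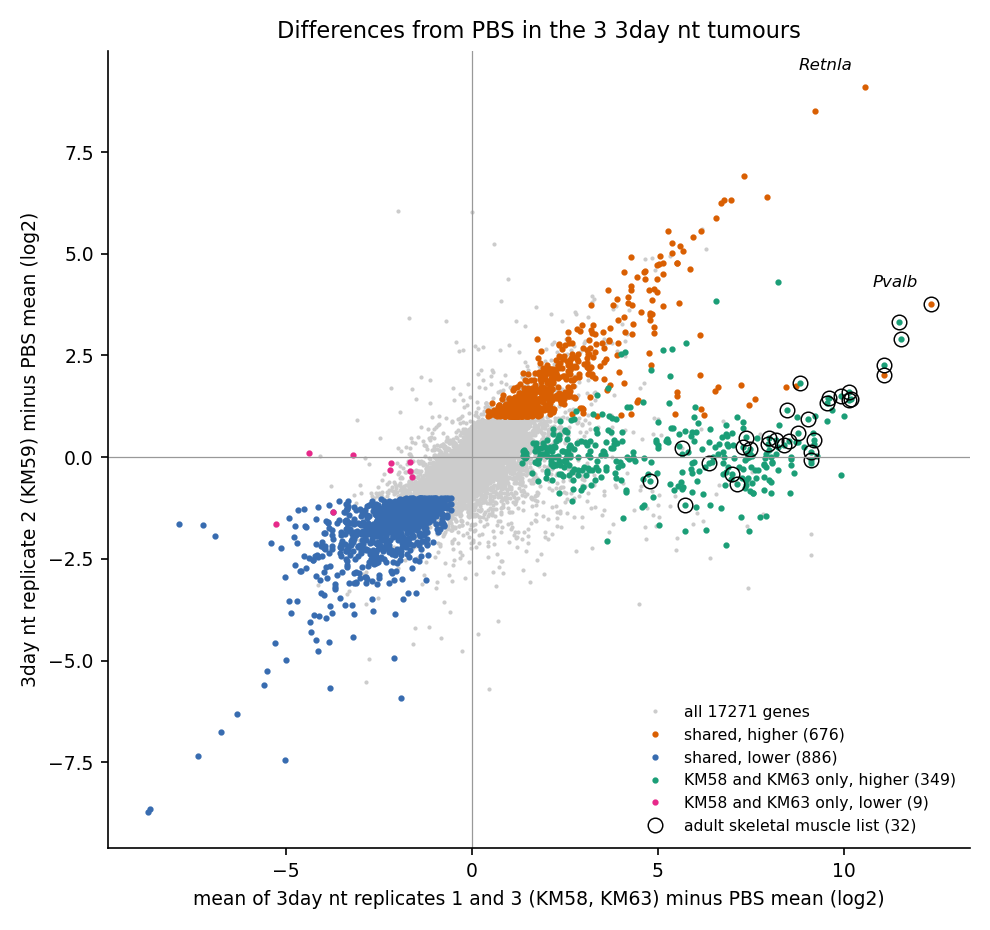
Each point is a gene: the x axis gives the mean of KM58 and KM63 minus the PBS mean, the y axis KM59 minus the PBS mean, both in log2 units, with the 4 classes coloured and 32 adult muscle genes ringed. The 349 genes higher in KM58 and KM63 only lie along the right side of the x axis, where most ringed genes are, and Retnla lies at the top of the shared higher genes.

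The shared higher genes were led by Retnla, also called Fizz1 or RELMα, a secreted cysteine-rich protein of alternatively activated macrophages and of fat. It read -1.95, -3.24, 1.24 and -2.56 in PBS replicates 1 to 4 and 9.46, 7.48 and 8.45 in KM58, KM59 and KM63. The lowest 3day nt value stood 6.23 above the highest PBS value, PBS replicate 3. Retnla rose by 10.09 (SE 1.09, limma adjusted p 0.00315), by 9.10 in KM59 taken alone, and the call held when any 1 of the 7 samples was left out. Eif4ebp3, a repressor of cap-dependent translation, was between -2.83 and -1.05 in PBS and at 4.03, 3.16 and 3.79 in 3day nt. It rose by 5.27 (SE 0.47, adjusted p 0.00204), but 67.3% of its exon bases lie in exons of AC115631.1 on the same strand, so reads of the pair could be shared. Slc51a, a subunit of the bile acid and steroid transporter OSTα-OSTβ, rose by 4.22 (SE 0.37, adjusted p 0.00189), from between -1.34 and -0.24 to 4.07, 2.98 and 3.88.

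Members of gene families with near-identical copies also stood among the 8 shared higher genes with the widest gap, and how reads were split between copies is not known. The eosinophil-associated ribonucleases Ear2 and Rnase2a rose by 4.55 (SE 0.40) and 5.97 (SE 0.86). Xlr3a, of an X-linked lymphocyte-regulated family, rose by 5.37 (SE 0.58). The pseudogene Alms1-ps2 rose by 4.64 (SE 0.81). Ccdc152, a coiled-coil gene with 32.3% of its exon bases opposite Selenop, rose by 4.12 (SE 0.42). In each of these 5 genes the 3day nt values lay above all PBS values, and each kept its call without any 1 sample.

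Alternative activation had more shared higher genes than any other immune list. Of its 21 genes 10 rose and 1 fell, against 16.5% and 17.4% of all genes. All 11 were shared, 10 higher and 1 lower, against 3.91% and 5.13% of all genes. The median difference was 2.85, and 1.94 in KM59, beside 0.05 and 0.00 over all genes. Because tumours are mixed tissue, more cells of a type and more RNA per cell cannot be told apart in these and the following lists. Within each list, members beyond the 4 of largest difference were named after their values were seen. The 10 calls fell to 7 without KM58 and to 7 without KM63, and 11 were called with the length trend described below taken out. Cd209a, Ccl17 and Ccl22 are also in the dendritic cell list, Ccl24 in the type 2 list and Pdcd1lg2 in the checkpoint list, so these lists are not independent of one another.

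Among the lectins and surface proteins, Pdcd1lg2, which encodes PD-L2, a ligand of the T cell inhibitory receptor PD-1, read -0.94, -0.07, 0.38 and 0.72 in PBS and 4.88, 3.95 and 3.58 in KM58, KM59 and KM63. The groups did not overlap, and it rose by 4.11 (SE 0.47, limma adjusted p 0.00348). Mgl2, a galactose-type lectin, lay between -2.60 and 0.00 in PBS and at 3.49, 2.30 and 2.37 in 3day nt, and rose by 3.88 (SE 0.64, adjusted p 0.00755). Cd209a, a lectin related to DC-SIGN, varied more in PBS, at -0.06, -2.35, 2.14 and -3.67, and read 4.84, 3.78 and 3.46 in 3day nt. It rose by 5.01 (SE 1.34, adjusted p 0.0301). Cd209d, a neighbouring family member, rose by 4.92 (SE 1.31, adjusted p 0.0297). It had about 24, 0, 67 and 0 reads in PBS, so the size of its rise depends on the value that stands for 0 reads. Both Cd209 calls were lost without KM58, without KM63 or without PBS replicate 2, that of Cd209a also without PBS replicate 1 or KM59, and that of Cd209d without PBS replicate 4.

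The chemokines of the list rose as well. Ccl8, which attracts monocytes and type 2 T cells, read 0.35, -1.83, 1.44 and -1.35 in PBS and 4.73, 4.20 and 3.84 in 3day nt, a rise of 4.61 (SE 0.80, limma adjusted p 0.00832). Ccl17 and Ccl22, both ligands of Ccr4, rose by 2.45 (SE 0.41) and 2.96 (SE 0.46), and Ccl17 lost its call with all 15 samples in the fit. Their lowest 3day nt values, 2.96 in KM59 and 1.88 in KM63, lay above their highest PBS values of 1.84 and 0.30. The eosinophil attractant Ccl24 rose by 2.85 (SE 0.72, adjusted p 0.0255), and this call was lost without KM58, KM63 or any 1 of PBS replicates 2, 3 and 4. Fn1, fibronectin, went the other way: it read 0.56, -0.23, 0.22 and 0.23 in PBS and -1.42, -1.16 and -1.23 in 3day nt and fell by 1.46 (SE 0.20, adjusted p 0.00469).

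Other members of the list were not called. Mrc1 differed by 1.67 (SE 0.54, limma adjusted p 0.0535) with all 3 3day nt values, 1.39, 0.39 and 0.07, above the highest PBS value of -0.21, and it passed with each sample centred on its median. Chil3, a chitinase-like protein, spanned -2.56 to 3.90 in PBS and differed by 3.48 (SE 1.79, adjusted p 0.168). Arg1, arginase, read 2.03, 1.91, 1.58 and 2.26 in PBS and 3.31, 2.12 and 1.43 in 3day nt. Its groups overlapped, and the difference was 0.34 (95% interval -0.68 to 1.36). In the list of 10 type 2 immunity and eosinophil genes 2 rose and 2 fell, against 16.5% and 17.4% of all genes. Alox15, a lipoxygenase of eosinophils and alternatively activated macrophages, rose by 2.44 (SE 0.18, adjusted p 0.00125), from between -0.04 and 0.37 to 2.85, 2.27 and 2.61. The eosinophil lectin Siglecf fell by 1.30 (SE 0.26, adjusted p 0.0123), a call lost without KM63, and Stat6 fell by 0.47 (SE 0.11, adjusted p 0.0187), a call lost without KM58, KM63, PBS replicate 1 or PBS replicate 2. With 1 sample left out the higher calls of this list ran down to 1 (without PBS replicates 2, 3 or 4, or KM63). The lower calls became 1 without KM58 or PBS replicates 1 or 2, and 0 without KM63.

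**Figure D2:**
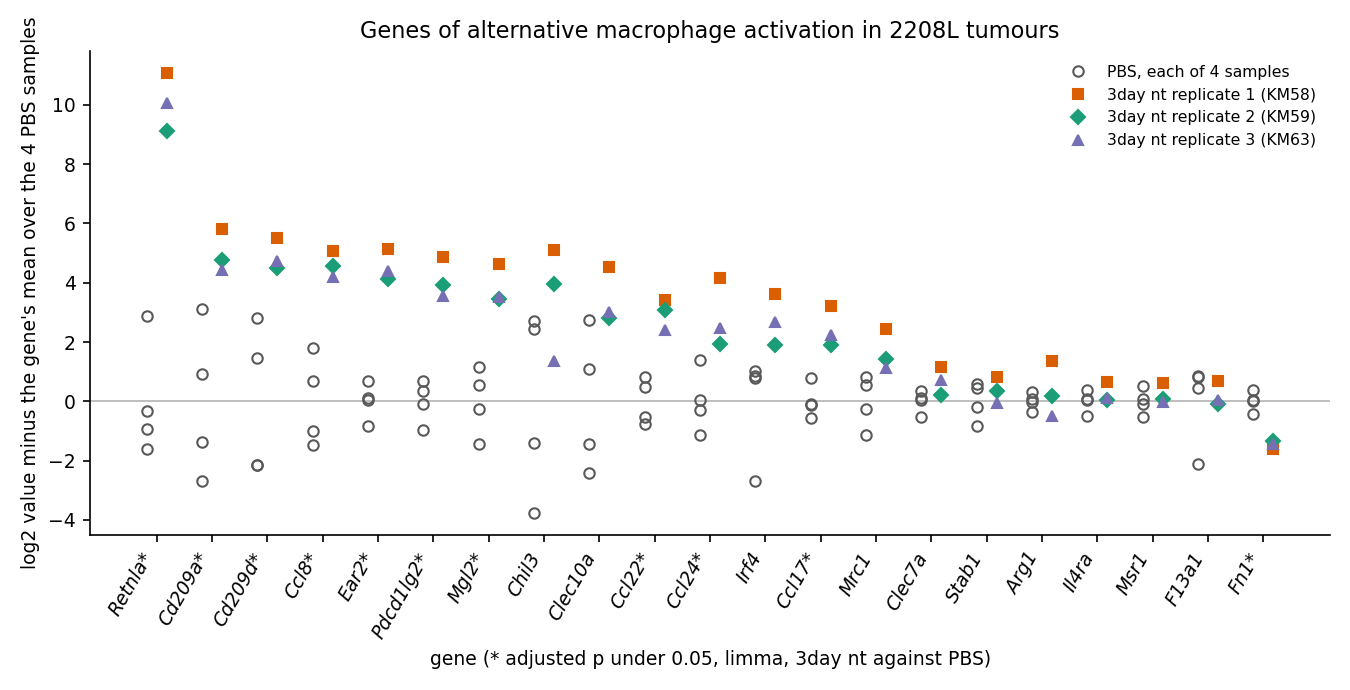
Values of the 21 alternative activation genes in each sample, as the log2 value minus the gene's PBS mean, with open circles for the 4 PBS samples and filled symbols for KM58, KM59 and KM63; a star marks an adjusted p under 0.05 (limma). Retnla stands at least 9.10 above its PBS mean in the 3day nt samples, and Fn1 is the only starred gene below it.

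Fat also makes Retnla. The mean over 19 adipocyte genes was -1.20, -1.96, 1.61 and -2.04 in PBS and 2.73, 1.27 and 2.24 in KM58, KM59 and KM63, so PBS replicate 3 lay above KM59. In PBS replicate 3 Retnla read 1.24, against 7.48 in KM59, and the part of fat in the Retnla difference was not tested. Adipoq, the fat hormone adiponectin, read 3.21 in PBS replicate 3 and -4.33 to -2.72 in the other PBS samples, against 2.94, 3.02 and 3.02 in 3day nt, and was not called (difference 4.86, limma adjusted p 0.0718). Resistin, Retn, rose by 5.02 (SE 1.22, adjusted p 0.0221), from -1.32, -1.93, 3.0 and -1.93 to 4.51, 4.41 and 4.49. That call was lost without KM58, KM63 or PBS replicates 1 or 2 and with all 15 samples. Of the list, 2 genes were called higher, a share below the 16.5% of all genes. The number was 5 with each sample centred on its median or with all 15 samples in the fit, 0 without KM58, KM63, PBS replicate 1 or PBS replicate 2, 1 without PBS replicate 4, 6 without KM59 and 12 without PBS replicate 3.

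Of 24 genes of macrophage identity and the CSF1 axis 5 rose and 1 fell, against 16.5% and 17.4% of all genes, with a median difference of 0.23. Csf1r, the receptor for the macrophage growth factor CSF1, read 0.00, -0.44, 0.12 and -0.89 in PBS and -0.02, -0.42 and -0.39 in KM58, KM59 and KM63. The groups overlapped fully, and the difference was 0.02 (95% interval -0.61 to 0.66). Adgre1, which encodes the surface marker F4/80, differed by 0.09 (-0.62 to 0.81), and Cd68, a lysosomal glycoprotein, by -0.09 (-0.75 to 0.58). The ligands Csf1 and Il34 differed by 0.50 (limma adjusted p 0.0771) and 0.22 (adjusted p 0.413), and Csf1 passed with each sample centred on its median. Timd4, a phosphatidylserine receptor of resident macrophages, rose by 2.08 (SE 0.52, adjusted p 0.0238), and Mertk, a receptor for apoptotic cells, fell by 1.09 (SE 0.21, adjusted p 0.0107). Maf, a transcription factor of resident macrophages, rose by 1.44 (SE 0.38, adjusted p 0.0286). The folate receptor Folr2 and the haemoglobin scavenger receptor Cd163 differed by 2.24 (adjusted p 0.0641) and 2.56 (adjusted p 0.128), with all 3day nt values above all PBS values. Timd4 lost its call without PBS replicate 2, KM58 or KM59. Maf lost its call without PBS replicates 2 or 4, KM58 or KM63, and 63.1% of the exon bases of Folr2 lie opposite Gm10602. The 5 higher calls became 8 under quantile normalization, 3 with all 15 samples, 3, 0 and 2 without PBS replicates 1, 2 or 4, and 0, 2 and 1 without KM58, KM59 or KM63.

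Monocyte chemokines and receptors had 5 genes called higher and 1 lower of 16, against 16.5% and 17.4% of all genes. Of these 4 were shared higher, against 3.91% of all genes. Ccl7, a ligand of the monocyte receptor Ccr2, read -0.31, -1.15, -0.72 and -1.08 in PBS and 2.47, 0.76 and 1.13 in 3day nt and rose by 2.27 (SE 0.43, limma adjusted p 0.0106). Ccl12, another Ccr2 ligand, rose by 1.95 (SE 0.39, adjusted p 0.0125), a call lost without KM63. The monocyte surface antigen Ly6c2 rose by 2.20 (SE 0.47, adjusted p 0.0146), a call lost without KM58. Ccl2 itself differed by 1.33 (SE 0.46, adjusted p 0.0633) with no overlap between the groups. The 5 calls became 2 without KM58, 3 without KM63 and 3 without PBS replicate 1.

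Genes of inflammatory activation were mixed, with 5 higher and 1 lower of 17 and a median of 0.23. Over all genes 16.5% were higher and 17.4% lower. Il6, a cytokine of acute inflammation, rose by 2.30 (SE 0.53, limma adjusted p 0.0188) and was above all PBS values in the 3 3day nt samples. Nos2, the inducible nitric oxide synthase, fell by 2.27 (SE 0.56, adjusted p 0.0231), from 1.79, 0.12, 0.81 and 2.49 to -0.62, -1.28 and -1.02. Cxcl10, an interferon-induced attractant of T cells, rose by 1.12 (SE 0.28, adjusted p 0.0247). All 3 calls were lost without KM58 or KM63, that of Nos2 also without KM59 or PBS replicate 1. That of Cxcl10 was lost as well without PBS replicate 2, under quantile normalization, with all 15 samples and with the length trend taken out. The 5 higher calls of the list became 3 under quantile normalization, 1 with all 15 samples, 2 with the length trend taken out, 1 without KM58 or KM63, 2 without PBS replicate 2 and 3 without PBS replicate 4.

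Of 16 genes of dendritic cells, which present antigen to T cells, 9 rose and 1 fell, against 16.5% and 17.4% of all genes. Of these 8 were shared higher, against 3.91% of all genes, and the list median was 1.42 (1.45 in KM59). Cd209a, Ccl17 and Ccl22 are among the 9. Siglech, a lectin of plasmacytoid dendritic cells, read -1.62, -0.05, 0.25 and -2.77 in PBS and 3.06, 2.70 and 1.26 in 3day nt, and rose by 3.39 (SE 0.82, limma adjusted p 0.0222). Flt3, the growth factor receptor of the lineage, and Xcr1, a chemokine receptor of cross-presenting cells, rose by 2.75 (SE 0.76) and 2.30 (SE 0.63). Batf3, a transcription factor of those cells, rose by 1.20 (SE 0.21), and Ccr7, which guides them to lymph nodes, by 2.40 (SE 0.59). Batf3 kept its call without any 1 sample. Siglech and Ccr7 lost theirs without KM58 or PBS replicate 1, Xcr1 without PBS replicate 2 or any 3day nt sample, and Flt3 without any sample but PBS replicate 3. The 9 calls became 4 without KM58 and 5 without PBS replicate 1.

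T cell genes were higher in 8 of 24 cases and lower in 0, with a median difference of 1.28 (1.03 in KM59). Over all genes 16.5% were higher. Trbc2, a constant segment of the T cell receptor, read -4.08, -3.56, -1.59 and -4.76 in PBS and 0.00, -0.91 and -0.39 in 3day nt, and rose by 3.06 (SE 0.72, limma adjusted p 0.0203). Foxp3, the factor of regulatory T cells, was at -2.30, -1.68, -1.03 and -1.84 in PBS and 0.19, -0.05 and 0.43 in 3day nt. It rose by 1.90 (SE 0.30, adjusted p 0.00671) and kept its call without any 1 sample. The adhesion receptor Cd2 and the costimulator Icos rose by 2.81 (SE 0.60) and 2.77 (SE 0.61). Their calls were lost without KM58 or KM63, and those of Trbc2 and Trac (rise 1.45, SE 0.37) also without PBS replicates 1 or 2. The lineage markers had wider spreads: Cd8a differed by 2.21 (95% interval -0.49 to 4.92), Cd3e by 0.98 (-0.95 to 2.92) and Cd4 by 0.58 (SE 0.40, adjusted p 0.287). PBS replicate 3 was the highest of all 7 samples for each of these 3 genes. The 8 calls became 1 without KM58, 2 without KM63, and 3 and 5 without PBS replicates 1 and 2.

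Of 13 cytotoxic and natural killer cell genes 2 rose and 2 fell, near the shares of all genes (16.5% and 17.4%). Gzma rose by 2.46 (SE 0.61, limma adjusted p 0.0238), a call lost without KM58, KM63 or PBS replicate 2. Gzmd read 3.83, 2.55, 2.49 and 3.02 in PBS and 0.00, -0.01 and 0.94 in 3day nt, and fell by 2.66 (SE 0.40, adjusted p 0.00605). Gzme fell by 2.52 (SE 0.39, adjusted p 0.00651). Gzmd and Gzme are adjacent, near-identical copies, so their reads may be divided between them. The 2 higher calls became 5 with each sample centred on its median or under quantile normalization, 0 without PBS replicate 2, KM58 or KM63, 1 without PBS replicate 1, PBS replicate 4 or KM59 and 6 without PBS replicate 3.

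Antigen presentation by MHC class I had 11 higher and 0 lower genes of 16, against 16.5% and 17.4% of all genes. The median difference was 0.64 (0.77 in KM59). Against 3.91% of all genes, 4 of the list were shared higher. Of these, Tap2, a subunit of the peptide transporter, read -0.44, -0.68, -0.33 and -0.71 in PBS and 0.80, 0.74 and 0.62 in 3day nt, and rose by 1.26 (SE 0.13, limma adjusted p 0.00305). The immunoproteasome subunits Psmb9 and Psmb10 rose by 1.53 (SE 0.22) and 1.44 (SE 0.19), and the heavy chain H2-K1 by 1.07 (SE 0.12). These 4 kept their calls without any 1 sample, and the list had 7 calls without KM63 and 6 with all 15 samples. H2-K1 has close copies in the same cluster. In MHC class II 4 of 10 genes rose, among them H2-DMb1, which loads peptides, by 1.80 (SE 0.40, adjusted p 0.0165). H2-Ab1 differed by 1.50 (SE 0.49, adjusted p 0.0523). The class II count was 0 without KM58 or KM63 and 2 without PBS replicate 1 or with the length trend taken out, and H2-DMb1 lost its call without KM58 or KM63. PBS replicate 4 had the lowest class II mean, -0.63, against 0.21 to 1.09 in the other PBS samples and 1.39 to 1.63 in 3day nt.

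Of 39 interferon-stimulated genes 7 rose and 1 fell, with a median of 0.29, and the higher share was near the 16.5% of all genes. Bst2, a tether of enveloped viruses, rose by 1.38 (SE 0.21, limma adjusted p 0.00665, lost with all 15 samples) and Ifi35 by 1.13 (SE 0.13, adjusted p 0.00348). Isg15, a ubiquitin-like protein, rose by 1.11 (SE 0.21, adjusted p 0.0108), a call lost under quantile normalization and with the length trend taken out. The 7 higher calls became 3 without PBS replicate 2 or any 1 of the 3day nt samples, 4 without PBS replicate 4 and 12 without PBS replicate 1. Quantile normalization left 3, and the length-adjusted fit and that of all 15 samples 2. Among 17 checkpoint genes 4 rose and 1 fell, including Pdcd1lg2 above. Tnfrsf4, the costimulatory receptor OX40, rose by 2.0 (SE 0.31, adjusted p 0.00644), and Cd47, which restrains engulfment by macrophages, by 0.93 (SE 0.12, adjusted p 0.0045). Cd274, which encodes PD-L1, differed by -0.93 (SE 0.35, adjusted p 0.0831), and its receptor gene Pdcd1 by 0.26 (95% interval -1.37 to 1.89).

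The shared lower genes numbered 886, with a median difference of -1.87 (-1.56 in KM59, where the shared rule requires at least 1). Their 8 widest gaps included Fhl5, a LIM-domain coactivator, at 1.99, 1.02, 1.36 and 1.35 in PBS and -2.33, -3.33 and -3.08 in 3day nt, a fall of 4.35 (SE 0.31, limma adjusted p 0.00112). Col10a1, a collagen of growth-plate cartilage, fell by 4.12 (SE 0.50), from between 1.59 and 2.88 to -3.13, -1.88 and -1.35. Kcnh1, a voltage-gated potassium channel, fell by 3.37 (SE 0.35). The replication-dependent histone H4c14 fell by 3.78 (SE 0.20) and the pseudogenes Amd-ps3 and Ak3l2-ps by 4.29 (SE 0.21) and 3.74 (SE 0.48). Adnp, a homeobox chromatin factor, fell by 4.02 (SE 0.46), with 82.1% of its exon bases in exons of Gm20716 on the same strand. These 7 and Pcdhgb1, described below, kept their calls without any 1 sample. Fhl5, Amd-ps3, H4c14, Adnp and Ak3l2-ps also kept them with KM59 alone against PBS and with the muscle covariate.

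Glycolysis and hypoxia genes fell in 17 of 26 cases and rose in 0, against 17.4% and 16.5% of all genes. The median difference was -0.73 (-0.95 in KM59), and KM59 lay below the PBS range in 25 of the 26 against 29.6% of all genes. Shared lower were 11 genes, against 5.13% of all genes. The list mean was 0.12, 0.14, 0.27 and 0.37 in PBS and -0.57, -0.86 and -0.77 in KM58, KM59 and KM63. KM63 carried part of the count, which was 11 without it, and 20 genes were called with the length trend taken out.

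By role, glucose entry and glycolysis came first. The glucose transporter Slc2a1 read -0.25, -0.62, -0.51 and 0.37 in PBS and -2.05, -1.82 and -2.13 in 3day nt and fell by 1.75 (SE 0.25, limma adjusted p 0.00551). Pfkp, a phosphofructokinase, was at 1.52 to 1.84 in PBS and at -0.15, 0.05 and -0.49 in 3day nt, and fell by 1.81 (SE 0.17, adjusted p 0.00224). Pdk1, which diverts pyruvate from mitochondria, fell by 1.52 (SE 0.13), the hexokinase Hk2 by 0.77 (SE 0.17) and the kinase Pgk1 by 0.58 (SE 0.12). Hk2 and Pgk1 lost their calls without KM63. Aldoa split the 3day nt samples instead: it read 0.59 to 0.78 in PBS, 1.67 and 1.34 in KM58 and KM63 and -0.09 in KM59, with a difference of 0.31 (95% interval -0.64 to 1.27). Ldha and Gapdh likewise lay below the PBS range in KM59 alone, at -0.06 and -0.54. Muscle holds glycolytic enzymes in quantity, and its part in these values was not tested.

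Genes of the oxygen response itself followed. Ero1l, an oxidase of protein folding, had the tightest values, 0.25, 0.15, 0.27 and 0.24 in PBS and -1.58, -1.43 and -1.66 in 3day nt. It fell by 1.78 (SE 0.10, limma adjusted p 0.000684) and kept its call with KM59 alone. Bnip3, a mitophagy receptor, fell by 2.06 (SE 0.23), from between 0.30 and 0.85 to -0.96, -1.74 and -1.52. Ndrg1, a stress-induced gene, fell by 1.87 (SE 0.20), Ankrd37 by 1.46 (SE 0.18) and the oxygen sensor Egln3 by 1.45 (SE 0.18). The vasodilator peptide Adm fell by 2.40 (SE 0.57, adjusted p 0.0202), a call lost without KM63. Vegfa, the vessel growth factor, read -0.39, -0.80, -0.61 and 0.28 in PBS and -1.96, -2.09 and -2.12 in 3day nt and fell by 1.68 (SE 0.26, adjusted p 0.00649). Hif1a fell by 0.57 (SE 0.14, adjusted p 0.0216), a call lost without KM59, KM63 or PBS replicate 1, with all 15 samples, or with length and GC trends taken out. Car9, a carbonic anhydrase, differed by -1.55 (SE 0.52, adjusted p 0.0575), and PBS replicate 1, at -1.48, was as low as 3day nt.

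**Figure D3:**
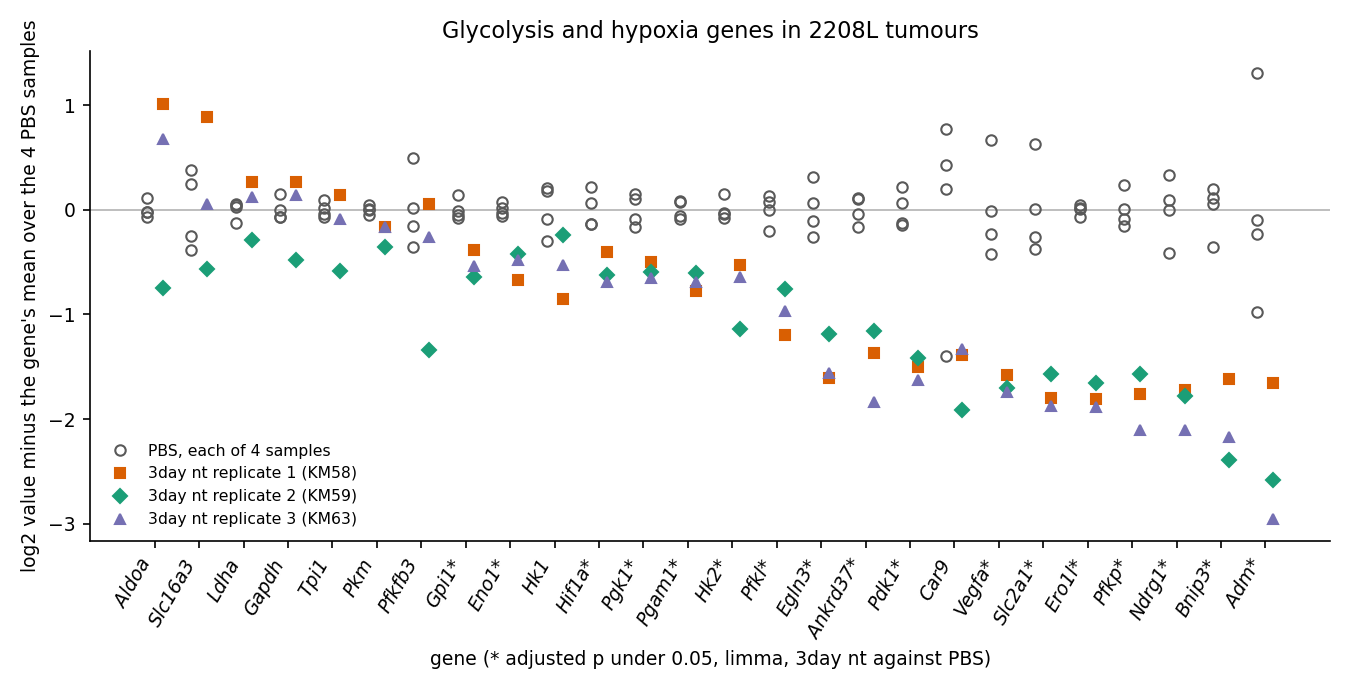
Values of the 26 glycolysis and hypoxia genes in each sample, as the log2 value minus the gene's PBS mean, with open circles for PBS and filled symbols for KM58, KM59 and KM63; a star marks an adjusted p under 0.05 (limma). The 3day nt symbols lie below the PBS circles in the starred genes, and Aldoa is high in KM58 and KM63 and low in KM59.

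Of 20 endothelial genes 3 fell, below the share of all genes (17.4%), with a median of 0.14 (-0.50 in KM59). Flt1, a VEGF receptor, read 0.28, -0.13, 0.16 and 0.05 in PBS and -1.17, -1.51 and -1.59 in 3day nt, and fell by 1.51 (SE 0.15, limma adjusted p 0.00276). Flt4, the receptor of lymphatic vessels, fell by 1.44 (SE 0.28, adjusted p 0.011). In the pericyte and smooth muscle list 5 of 15 fell, against 17.4% of all genes, and 2 rose. Kcnj8, a potassium channel of pericytes, fell by 2.21 (SE 0.23, adjusted p 0.00276), its partner Abcc9 by 1.58 (SE 0.40, adjusted p 0.0243) and the receptor Notch3 by 1.45 (SE 0.16, adjusted p 0.00341). Abcc9 lost its call without KM63 or PBS replicates 1 or 3. The 5 lower calls became 2 without KM63 and 3 without PBS replicate 1. The 2 higher became 1 without KM63 and 4 without KM59.

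Neutrophil genes fell in 11 of 17 cases and rose in 0, against 17.4% and 16.5% of all genes. The median difference was -0.95 (-1.22 in KM59), and 6 genes were shared lower, against 5.13% of all genes. Cd177, a surface glycoprotein of neutrophils, read 2.21, 2.94, 3.72 and 3.19 in PBS and 1.29, 0.50 and 0.00 in 3day nt, and fell by 2.42 (SE 0.43, limma adjusted p 0.00877). Fpr1, the formyl peptide receptor, and Cxcr2, the receptor for neutrophil chemokines, fell by 2.38 (SE 0.40) and 2.06 (SE 0.40), and Lcn2, a siderophore-binding protein, by 0.92 (SE 0.14). These 4 kept their calls without any 1 sample, and Lcn2 lost its call with all 15 samples. The calprotectin subunits S100a8 and S100a9 fell by 1.79 (SE 0.47) and 2.18 (SE 0.59). Both were lost without KM59, KM63 or PBS replicate 1, S100a9 also without PBS replicates 3 or 4 and S100a8 with all 15 samples. The granule gene Ngp spanned 2.24 to 6.98 in PBS and read -0.40, 3.33 and -0.14, so KM59 lay inside the PBS range (difference -4.05, adjusted p 0.0746). The list had 6 calls with all 15 samples, 4 without KM63, 6 without KM59, 5 without PBS replicate 1 and 7 without PBS replicate 4.

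The gamma protocadherins, adhesion molecules with many variable first exons spliced to a shared end, were noticed after the values were seen. Of 22 measured, 17 fell and 1 rose, against 17.4% and 16.5% of all genes. Among the 22, 16 were shared lower, against 5.13% of all genes, and the median difference was -2.17 (-2.31 in KM59). Their mean was 0.37, -0.27, 0.17 and -0.54 in PBS and -1.96, -1.94 and -1.95 in 3day nt. Pcdhgb1 fell by 3.52 (SE 0.33, limma adjusted p 0.00232), from between -0.81 and 0.60 to -3.92, -3.37 and -3.75. Pcdhgc4 rose by 2.20 (SE 0.31, adjusted p 0.00517), from between -2.35 and -1.53 to 0.65, -0.45 and 0.32. The members share exons, with 54.6% of the bases of Pcdhgb1 in exons of Pcdhga4 and 37.9% of those of Pcdhgc4 in exons of Pcdhga1, so they are not independent measurements and how reads were divided among them is not known.

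Of the 349 genes high in KM58 and KM63 only, 28 are in the adult skeletal muscle list of 32 and 9 in the list of 13 embryonic and regenerating muscle genes. A further 5 are adipocyte genes, and most of the 349 are in no list. Their median was 4.82 above the PBS mean in KM58 and KM63 and 0.05 in KM59. The rule of the class places KM58 and KM63 above PBS and KM59 inside its range, so these medians are no further result. The 5 of widest gap were Apobec2, a muscle deaminase-like protein, the myosin light chains Myl1 and Mylpf, the fast troponin C Tnnc2, and Ampd1, the muscle AMP deaminase. Myl1 read 2.03, 2.15, -1.65 and -2.08 in PBS, 10.28 in KM58, 1.61 in KM59 and 9.80 in KM63. Apobec2 read 9.91, 0.72 and 9.51 in KM58, KM59 and KM63 against -2.69 to 1.34 in PBS. PBS replicates 1 and 2 lay above PBS replicates 3 and 4 for each of the 5. Of the exon bases of Tnnc2 74% lie opposite Ube2c, and whether strand was used in counting is not given in the sources used here. The 7-sample fit called 4 of the 32 adult muscle genes higher, a share below the 16.5% of all genes. The 4 became 10 with all 15 samples, 2 with the length trend taken out and 32 without KM59. They became 0 without KM58, KM63, PBS replicate 3 or PBS replicate 4, and 1 without PBS replicates 1 or 2.

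Muscle genes were not wholly absent from KM59. Pvalb, the calcium buffer of fast fibres, read 2.48, 2.38, -1.93 and -1.93 in PBS and 12.87, 4.01 and 12.29 in KM58, KM59 and KM63, so KM59 lay 1.53 above the highest PBS sample. Ckmt2, the mitochondrial creatine kinase of muscle, read 2.41 in KM59 against a PBS maximum of 2.19. These values rest on few reads, about 8 in KM59 and 9, 1, 0 and 0 in PBS, against 4948 and 4012 in KM58 and KM63. Pvalb and Ckmt2 thus fall in the shared class (limma adjusted p 0.0262 and 0.035). Both lost the call without KM58, KM63, PBS replicate 3 or PBS replicate 4, Ckmt2 also without PBS replicates 1 or 2. Ckm, the cytosolic enzyme, read 4.36 in PBS replicate 1 and 2.55 in KM59. Chrna1, the acetylcholine receptor subunit of the muscle membrane, read 3.53, -3.11 and 3.38, and Des, the intermediate filament desmin, 5.76, -1.12 and 5.56. Myf5, a factor of muscle stem cells, had the value that stands for 0 reads in KM59 and in 3 PBS samples and read 3.42 and 2.96 in KM58 and KM63.

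Of 9 mast cell genes 1 was called higher, below the 16.5% of all genes, with a list median of 2.72 (1.52 in KM59). Cma1, mast cell chymase, read -3.47, -5.50, -0.43 and -4.13 in PBS and 1.95, -0.32 and 1.08 in 3day nt and rose by 4.29 (SE 1.19, limma adjusted p 0.0339). That call was lost without KM58, KM63 or PBS replicates 1, 2 or 4, and the list had 4 calls without PBS replicate 3, 3 without KM59 or with each sample centred on its median, and 6 under quantile normalization or with all 15 samples. The tryptase Tpsb2 (difference 3.52, adjusted p 0.0551) and the fat and muscle carbonic anhydrase Car3 (6.93, adjusted p 0.0543) were inside the PBS range in KM59. PBS replicate 3, the PBS sample with the most adipocyte RNA, was also the highest in Cma1 and Tpsb2. Of the 9 genes with the reverse pattern, the 4 that the naming rule allows were Sstr2, Oxtr, Ggt1 and Kcnk4, with Kcnk4 called (-1.23, SE 0.35, adjusted p 0.0354, lost without KM58, KM63 or PBS replicates 1, 2 or 3 and with all 15 samples). Oxtr, the oxytocin receptor, read 1.30, 1.14, 1.70 and -0.65 in PBS and -1.91, 0.92 and -2.73.

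**Figure D4:**
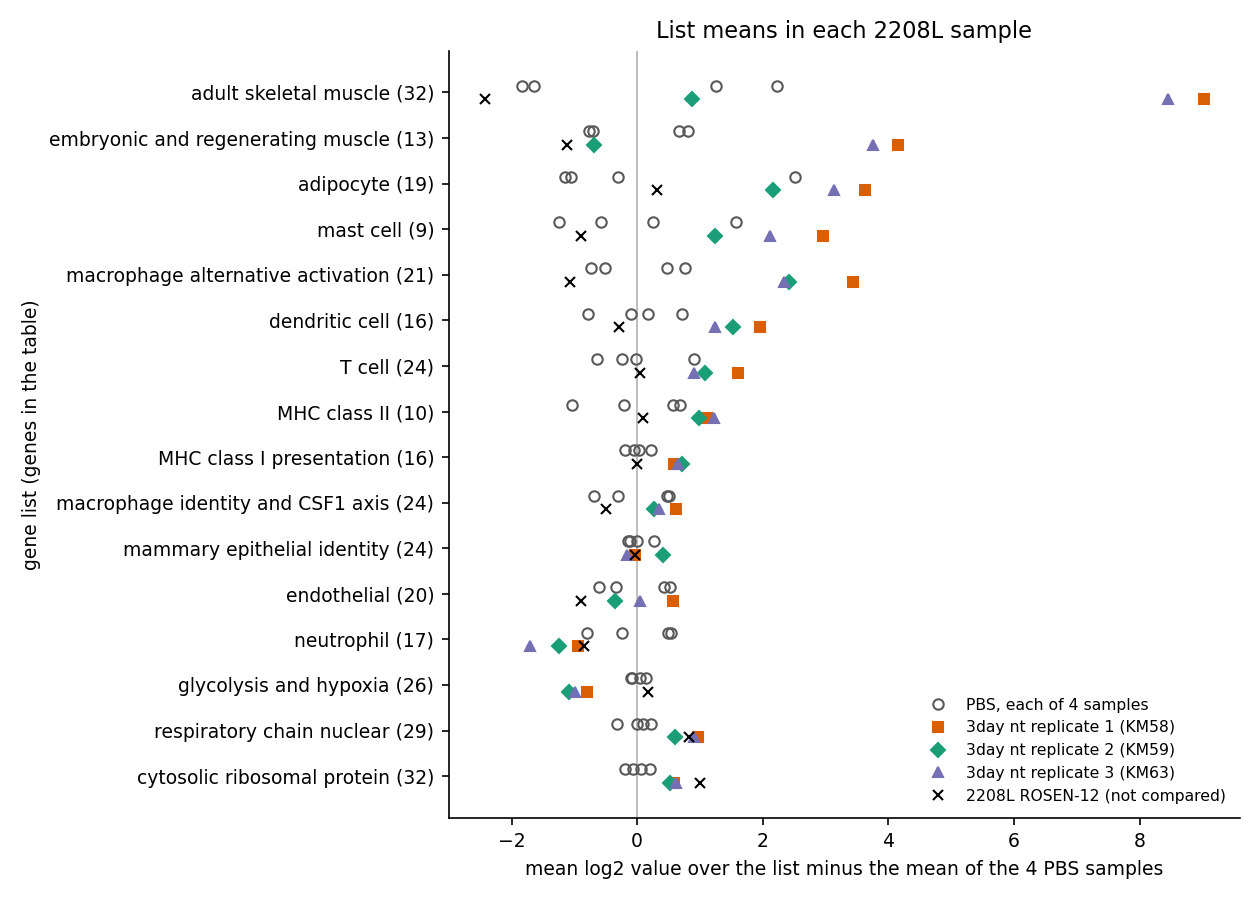
Mean log2 value over 16 gene lists in each 2208L sample, minus the mean of the 4 PBS samples; open circles are PBS, filled symbols KM58, KM59 and KM63, and crosses the ROSEN-12 sample, which entered no comparison. The muscle means of KM58 and KM63 stand far to the right of KM59 and PBS, and the alternative activation, neutrophil and glycolysis means of all 3 3day nt samples lie outside the PBS range.

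Differences followed transcript length. Among 14456 protein-coding genes, the 10% with the shortest transcripts (median 1081 bases) had a median difference of 0.66, with 49.5% called higher and 4.15% lower. The 10% with the longest (median 8284 bases) had -0.46, with 2.28% higher and 41.4% lower. Spearman's rho between length and a sample's difference from the PBS mean was -0.42, -0.42 and -0.45 in KM58, KM59 and KM63, and 0.18, -0.03, -0.15 and -0.03 in PBS replicates 1 to 4 (across genes, a description). The trend thus runs with the label in all 3 3day nt samples, and RNA integrity and library handling were not measured, so their part was not tested. With a smooth length trend taken out of each sample, 2022 genes were called higher (11.9% of 16952) and 2619 lower (15.4%). Of the shared genes 548 of 676 higher and 829 of 886 lower were still called. Fewer, 405 and 707, still met the whole shared rule on the values with the trend taken out.

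**Figure D5:**
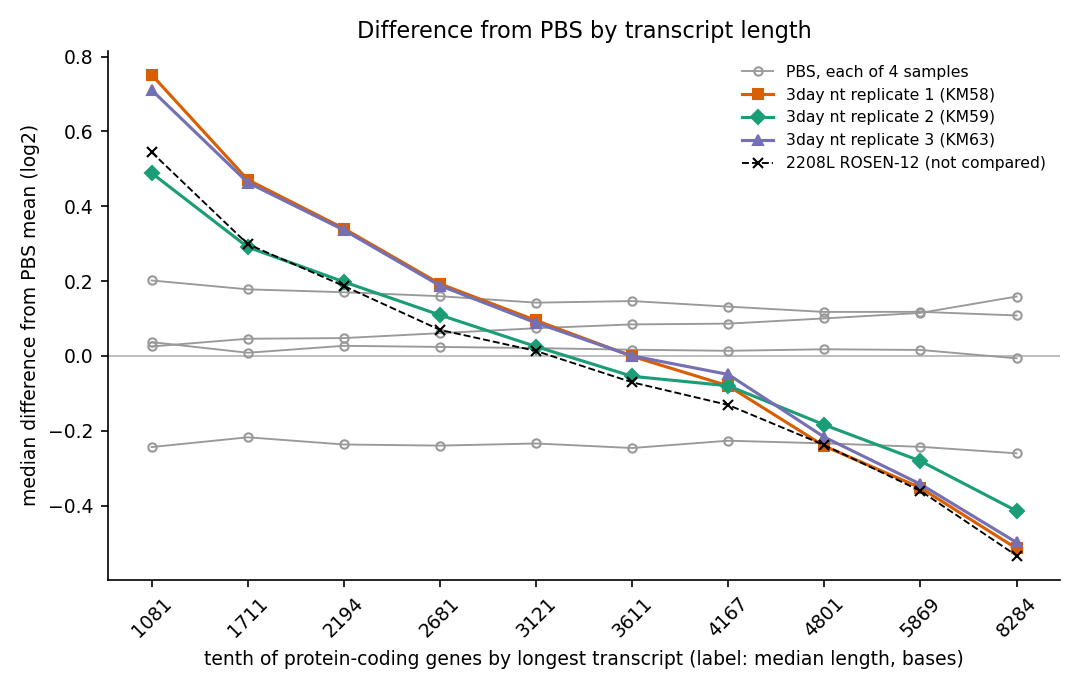
Median difference from the PBS mean (log2) in 10 equal groups of protein-coding genes ordered by transcript length, for each 2208L sample; the x axis labels give the median length in bases. KM58, KM59 and KM63 fall from above 0 to below 0 with length, as does ROSEN-12, which was not compared, while the 4 PBS lines are nearly flat.

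Among lists of short transcripts, the 6 red cell genes (median length 701 bases) had a median difference of -0.35, with 0 called. The 13 cytotoxic genes (964 bases) had one of 0.85. The respiratory and ribosomal lists had median lengths of 1697 and 1107 bases. Of 29 nuclear genes of the respiratory chain 24 rose and 0 fell, against 16.5% and 17.4% of all genes. The median was 0.87, and 3 genes were shared higher, against 3.91% of all genes. Ndufa1, a subunit of complex I, read -0.13, 0.00, 0.13 and -0.33 in PBS and 1.54, 1.02 and 1.40 in 3day nt and rose by 1.40 (SE 0.17, limma adjusted p 0.00416). Cox5a, of complex IV, rose by 1.39 (SE 0.19). Of 32 cytosolic ribosomal proteins 23 rose and 0 fell, with a median of 0.59. Their median length falls in the shortest 10% of protein-coding genes, of which 49.5% rose and 4.15% fell, with a median of 0.66. Rplp2 and Rps12 rose by 1.17 (SE 0.13) and 1.02 (SE 0.15). With the length trend taken out 19 respiratory and 8 ribosomal genes were called, with medians of 0.53 and 0.22. Without KM58 or KM63 the respiratory count was 15 or 10 and the ribosomal count 15 or 11. Muscle is rich in respiratory enzymes, and KM59, whose muscle mean lay inside the PBS range, was above the PBS range in 26 of the 29 respiratory genes, against 31.1% of all genes. The part of muscle in the respiratory genes was not tested. At a least difference of 1 the respiratory count was 8 and the ribosomal count 2.

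The 13 mitochondrially encoded genes all encode parts of the respiratory chain and ATP synthase. Of these 7 rose and 0 fell, against 16.5% and 17.4% of all genes, with a median of 1.20. Their median length of 784 bases falls in the shortest 10% of protein-coding genes, of which 49.5% rose and 4.15% fell. With the length trend taken out 6 were called higher, with a median of 0.78. mt-Nd6, the complex I subunit of the light strand, rose by 2.0 (SE 0.24, limma adjusted p 0.00378) and mt-Co3, of complex IV, by 1.67 (SE 0.17, adjusted p 0.00259). They read at most -0.25 and -0.22 in PBS and at least 1.10 and 1.08 in 3day nt. mt-Co2 read -1.66, -3.41, -1.66 and -11.45 in PBS and 1.95, 0.58 and 1.57, and its wide PBS spread left it uncalled (difference 5.91, adjusted p 0.098). mt-Nd4l read 0.88, 0.55, 0.75 and -0.63 in PBS and 0.41, 0.00 and -0.75 and differed by -0.50 (adjusted p 0.393).

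Tumour cell programmes differed gene by gene. Of 24 mammary epithelial genes 0 rose and 4 fell, among them the milk protein Csn3, at 6.58, 6.34, 7.11 and 7.25 in PBS and 5.27, 4.90 and 4.32 in 3day nt (a fall of 1.99, SE 0.31, limma adjusted p 0.00653). Against 17.4% of all genes lower, the list median was -0.03, and 0.01 without PBS replicate 4 or KM58. The 4 calls became 1 with all 15 samples in the fit, 2 without PBS replicates 2 or 3 and 1 without KM58 or KM63. The basal keratin Krt5 read -4.59, -4.59, 0.00 and -1.86 in PBS and -1.0, 2.48 and -3.33, with no call. In the junction list 9 of 22 fell and 3 rose, with Tjp1, the tight junction scaffold ZO-1, falling by 1.11 (SE 0.20, adjusted p 0.0088). The desmosomal cadherin Dsg3, of the keratinocyte list, fell by 2.01 (SE 0.28, adjusted p 0.00521). Dsg3 lost its call with all 15 samples. The 9 became 5 without KM58, 1 without KM63, 4 with all 15 samples and 3 with the length trend taken out. The 3 became 0 without KM63, under quantile normalization or with the length trend taken out, and 1 with all 15 samples.

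In the EGF family 6 of 18 fell, against 17.4% of all genes. Nrg2, a neuregulin, fell by 1.90 (SE 0.37, limma adjusted p 0.0111), the ligand Tgfa by 0.91 (SE 0.14, adjusted p 0.00686) and the receptor Erbb3 by 1.04 (SE 0.25, adjusted p 0.0206). Erbb3 lost its call without KM58, KM63 or PBS replicates 1 or 2. The 6 became 2 without KM58, KM63 or PBS replicate 2 and 3 without PBS replicates 1 or 3. The activin subunit Inhbb, of the list for TGF-beta signalling, had a narrow spread: 1.90, 1.62, 1.64 and 2.01 in PBS and -0.24, -0.13 and -0.28 in 3day nt, a fall of 2.01 (SE 0.14, adjusted p 0.00103). In that list 8 of 24 fell and 2 rose, against 17.4% and 16.5% of all genes. The 8 became 3, 4 and 4 without PBS replicates 1, 2 or 3, 2 without KM58, 1 without KM63, 4 with all 15 samples and 3 with the length trend taken out. The 2 became 1 with all 15 samples or without PBS replicate 1, KM58 or KM63.

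Of 24 mitosis genes 2 rose, against 16.5% of all genes, and the median of 0.04 lay at that of all genes. Mki67 read 0.34, -0.03, 0.38 and -0.64 in PBS and -0.57, -0.06 and -0.35 in 3day nt, a difference of -0.34 (95% interval -1.0 to 0.32). Birc5, survivin, rose by 1.05 (SE 0.24, limma adjusted p 0.0174), and E2f1, of the replication list, by 0.89 (SE 0.21, adjusted p 0.0191). Both calls were lost without KM58 or KM63, that of E2f1 also without PBS replicate 2. In the replication list 5 of 28 rose, near the share of all genes, while KM59 lay above the PBS range in 24 of 28 against 31.1% of all genes. The 2 mitosis calls became 4 under quantile normalization, 1 without KM58 and 0 without KM63. The 5 replication calls became 10 with each sample centred on its median or under quantile normalization, 2, 3 and 1 without KM58, KM59 or KM63, 2 without PBS replicate 2 and 9 without PBS replicate 4.

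Cholesterol synthesis had 7 genes called higher and 2 lower of 25, against 16.5% and 17.4% of all genes. Fdft1, squalene synthase, read -0.56, -0.53, -0.43 and -0.76 in PBS and 0.59, 0.57 and 0.65 in 3day nt, and rose by 1.17 (SE 0.11, limma adjusted p 0.00254). Cyp51 rose by 1.28 (SE 0.24, adjusted p 0.01) and Idi1 by 1.15 (SE 0.31, adjusted p 0.0317), while the desaturase Scd1 fell by 0.87 (SE 0.19, adjusted p 0.0168). Idi1 lost its call without any 3day nt sample or PBS replicate 1, and Scd1 without KM58 or KM63 or with all 15 samples. The 7 became 4 without PBS replicate 1 or KM58 and 3 without KM63, and the 2 became 0 without KM58 or KM63 and 1 without PBS replicates 1, 2 or 3, with all 15 samples or with the length trend taken out. In the clock list, whose genes cycle over the day, 8 of 19 fell and 1 rose, and the hour of collection is not given in the sources used here. Clock fell by 0.77 (SE 0.14, adjusted p 0.00908), not called with the length trend taken out, and Ciart by 0.94 (SE 0.23, adjusted p 0.0237), lost without KM59, KM63 or PBS replicate 1. Dbp read 1.77 and 1.22 in KM58 and KM63 and -1.64 in KM59, against -1.33 to -0.45 in PBS. The 8 became 5 without PBS replicate 2 or KM58 or with all 15 samples, 2 without KM63 and 4 with the length trend taken out. The single higher call of the clock list, and the single lower calls of the monocyte, checkpoint, dendritic and interferon lists, were each lost without KM58.

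Some genes had reads in all or some samples of 1 group and 0 reads in the other. Of the 727 genes whose value for 0 reads is known, 30 had none in 3day nt and over 3 counts, the floor, summed over PBS. The reverse held for 23. Since the floor is a sum, reads could lie in 1 sample, as in Gm45234 (115, PBS replicate 4) and Fam177a2 (307, KM63). Ostn had 326, 1 and 227 reads in KM58, KM59 and KM63. Rsc1a1, a regulator of sugar transport within a single exon, had about 759, 817, 1005 and 212 reads in PBS and was at least 685-fold lower in 3day nt. All of its exon bases lie in exons of Ddi2, a protease, on the same strand, and Ddi2 fell by 0.59 (SE 0.14, limma adjusted p 0.022, lost without KM58, KM63 or PBS replicates 1 or 2 and with all 15 samples). With the length trend taken out Ddi2 differed by -0.25 (adjusted p 0.269). Exosc6, an exosome subunit that was picked after its values were seen, had 0 reads in PBS and about 729, 546 and 1244 in KM58, KM59 and KM63, at least 1141-fold higher. All of its exon bases lie in exons of Aars, whose difference was -0.03 (SE 0.11, adjusted p 0.841). Zxda, a zinc finger gene copy, had about 385, 176, 346 and 129 reads in PBS and was at least 254-fold lower, with 73.1% of its bases opposite Gm26617. Whether such all-or-none genes come from reads assigned to an overlapping gene was not tested.

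Shared genes also differed from the rest in gene structure, as a description. Of the shared higher genes with a gene model 28.1% had a single exon, and of the shared lower 32.6%, against 13.4% of all genes and 3.78% of those high in KM58 and KM63 only. Among protein-coding genes alone the shares were 11.9% of shared higher, 5.52% of shared lower and 5.71% of all. At least 50% of the exon bases lay in another gene on the same strand in 3.38% of shared higher and 2.69% of shared lower genes, against 1.27% of all. By annotated type, 25.4% of 351 genes to be experimentally checked (TEC) and 16.8% of 760 processed pseudogenes were shared lower, against 3.38% of 14456 protein-coding genes. Of the shared lower genes 383, and of the shared higher genes 222, carry symbols of predicted genes, which were left out when genes were picked for naming.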

How the data were processed

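The deposited table holds log2 values of 17271 genes in 15 samples, made by the authors and centred per gene on a level not stated, and 0 of its columns belong to other samples. STAR, Salmon and mm10 are named in the submitters' processing notes, with no versions or roles. In 727 genes (4.21%) samples share 1 exact value, read here as that of 0 reads because the other low values were whole multiples of 1 read above or below it in 76.8 to 88.2% of cases (within 0.02 of a whole number, under 20 reads). It lies above the value of 1 read in deeper samples, and setting it to a lower value was an alternative. The steps gave the relative depth and the read numbers printed. They did not return whole reads for nearly all values, so no count test was run. Floors cover counting error only.

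The 4 PBS and 3 3day nt samples were fitted by limma 3.58.1 under R 4.3.3, with lmFit and eBayes on the deposited values, two-sided tests and Benjamini-Hochberg adjustment over all genes. Lengths of the longest transcript and exon overlaps (bedtools 2.31.1) came from a GENCODE annotation of the mm10 build and promoters from RefSeq, all matched by symbol. A length was found for 98.1% of genes, and its trend was a spline with 5 degrees of freedom. On simulated data for this comparison, with 100 genes changed by each size among 17271, the fit recovered 42% of changes of 1 and 70% of changes of 2. Of its 118 calls 6 were unchanged genes. That share of changed genes is smaller than the 34% called in the real data, so recovery and false calls may differ there.

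Named genes are the 8 shared genes per direction with the widest gap, the 5 per direction of widest gap seen in KM58 and KM63 only (both without predicted symbols and exact repeated values), up to 4 per list by absolute difference, and a fixed set of markers and checks. The text describes part of the 220 genes so named and says where it adds others. The 46 lists, with 858 of 949 genes in the table, and all members were chosen with earlier results of these data known. Alternatives were the scaling, filters, samples left out, KM59 alone, the muscle mean as a covariate, and transcript length and GC content.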

Additional observations from a re-analysis of the deposited data

Results flagged for a closer look

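In 12 of 207 genes and list means examined, 1 of the 4 PBS samples lay so far from the others that its gap to the nearest took most of the group's range (Dixon's ratio, 95% level). Chance alone marks about 1 in 20 groups, and the 3 samples of 3day nt are too few for this measure. PBS replicate 4, the shallowest sample, was low in Ccl12 (-2.58), Epcam (0.50), Cyp51 (-1.43) and the junction list mean (0.92). PBS replicate 1 was high in Bst2 (1.35), Isg15 (2.0) and Myf5 (0.024, where the other 3 had 0 reads) and low in Ldha (0.10). PBS replicate 2 was low in Slc51a (-1.34). PBS replicate 3 was high in H2-K1 (0.0078), Retn (3.0) and the checkpoint list mean (0.27).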

How the results depend on the processing

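No paired analysis was possible because no number in the sample titles links a PBS sample to a 3day nt sample. Of the 115 called genes printed, none reversed under any alternative. Centring each sample on its median, a trend or robust prior and 0 reads set to a fraction of a read each left all 115 called, quantile normalization 113, the length trend taken out 110 of 114, all 15 samples in the fit 104, the muscle covariate 18 and KM59 alone 10. Leaving out KM58, KM59 or KM63 left 84, 105 or 78, and PBS replicates 1 to 4 left 95, 96, 109 or 107. All-gene calls higher and lower were 22 and 76 with KM59 alone, 58 and 148 with the covariate, 1002 and 1206 of at least 1 log2 unit, and ran from 1017 to 3111 and from 1362 to 3988 with 1 sample left out. The shared counts, higher and lower, were 22 and 76 with KM59 alone, 57 and 142 with the covariate, 2164 and 2197 with a least KM59 difference of 0.5 and 164 and 232 with 2. They ran from 449 to 843 and from 710 to 1026 with 1 sample left out, and were 485 and 870 with the length trend taken out. The KM58 and KM63 class, higher and lower, held 524 and 62 genes at a gap of 0.5, 229 and 2 at a gap of 2, and 295 to 602 and 8 to 44 with 1 sample left out. The class could not be made without KM59. Its lower side held 65 genes under quantile normalization, 22 with the length trend taken out and 20 with length and GC. KM59 alone called 129 genes higher and 416 lower with each sample centred on its median, 78 and 206 under quantile normalization, 61 and 226 with the length trend taken out, 46 lower with all 15 samples, and 6 to 8 higher and 2 to 6 lower with 1 PBS sample left out. The cause of these shifts was not tested, beyond the fewer samples or stricter rules that some settings carry by construction. Array weights did not converge and were not run. PBS replicate 4, at the least depth, limits the low genes.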

Other observations

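The ROSEN-12 sample of 2208L entered no comparison. Its mean over the glycolysis and hypoxia list was 0.40, above the 4 PBS samples, and over the alternative activation list -1.32, below them, with Retnla at -1.20. Its means over nuclear respiratory chain genes and cytosolic ribosomal proteins, 0.62 and 0.52, were above every PBS sample, as in 3day nt, and its rho with transcript length was -0.42. Its adult skeletal muscle mean was -2.45 and its gamma protocadherin mean -1.11. It was nearer to the 3day nt than to the PBS mean in 35.1% of the 676 shared higher genes and in 49% of the 886 shared lower genes.

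Calls in the lists not described above are given beside shares of 16.5% higher and 17.4% lower over all genes. Of 24 fibroblast and collagen genes 1 rose and 1 fell, of 18 complement genes 2 rose and of 13 B and plasma cell genes 2 rose and 1 fell. Of 16 glucocorticoid response genes 1 rose and 4 fell, of 28 Wnt and Notch genes 4 rose and 6 fell, of 19 matrix protease genes 2 rose and 3 fell, and of 14 nerve genes 2 rose and 1 fell. Heat shock and unfolded protein genes had 2 higher and 1 lower of 23, immediate early genes 2 higher of 20, p53 targets 2 higher and 2 lower of 19, NRF2 genes 1 higher of 22, and replication-dependent histones 1 higher and 3 lower of 17. With 1 sample left out each of these counts lay between 0 and 7, and most were lower without KM58 or KM63. Wnt and Notch genes and glucocorticoid response genes were called in either direction about as often as all genes (34%).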
